A study of Rattus norvegicus with 15 samples.

Results

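A set of 27 genes had a strongly higher mean level in marrow stromal cells under both the fat-forming and the bone-forming medium. The members were selected on the measured counts: among 32883 rows with an Ensembl rat gene identifier, a gene entered if its mean level in adipogenic medium and its mean level in osteogenic medium were each at least 4-fold that of untreated cells, with 0.5 CPM added to every mean, and at least 5 CPM (a gene's reads per 1000000 counted reads of the library) in both media. The selection also named 4 identifiers to be left out, and 0 of them met the thresholds. The same fold and level were met by 86 genes in adipogenic medium and by 482 in osteogenic medium, so the members were 31.4% of the first list and 5.6% of the second. Both lists use the same untreated libraries.

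The study measured RNA from bone marrow mesenchymal stem cells of Sprague-Dawley rats, an outbred strain, grown to confluence and then kept with or without aspirin in a differentiation medium. There were 5 groups of 3 libraries: Control (untreated), Adi (adipogenic medium), Adi_ASA (adipogenic medium with aspirin), Ost (osteogenic medium) and Ost_ASA (osteogenic medium with aspirin). The labels give no age or sex of the animals, no dose of aspirin and no time in culture, and do not say whether replicates came from separate animals or dishes. Every p-value here therefore rests on the spread among the libraries of a group, and that spread may be technical. A difference from Control may therefore include time in culture, which cannot be told apart from the medium here. Libraries held 18373289 to 22817858 counted reads, and all 27 members were among the 15543 genes with enough reads to test.

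Marrow stromal cells are adherent progenitors that can be driven in culture to become adipocytes or bone-forming osteoblasts. The media used for this in the field commonly share a glucocorticoid, to which adipogenic recipes add insulin and an agent that raises cyclic AMP, and osteogenic recipes add ascorbate and a phosphate donor. What the media of this study contained is not given in the labels. Aspirin, acetylsalicylic acid, blocks the cyclooxygenases, the enzymes that start prostaglandin synthesis. The count table does not pair its identifiers with gene symbols, and 0 of its 34480 rows could be paired with one, so members are given by Ensembl identifier, with no function, position or sequence, and the labelled cell type could not be checked against its markers.

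The members started low and spread widely in the media. Control means ran from 0.0977 to 26.9 CPM with a median of 2.18, and 8 members were below 1 CPM in Control while 7 were at 5 CPM or more. In Adi the means ran from 6.73 to 601 CPM (median 18.5), and in Ost from 5.83 to 1134 CPM (median 72.7). The fold over Control was 4.21 to 61.2 in Adi, with a median of 7.67, and 4.03 to 135 in Ost, with a median of 17.8. The fold was larger in Ost for 21 members and larger in Adi for 6. A fold of 16 or more was reached by 3 members in Adi and by 15 in Ost, and 9 members reached 8-fold in both media. These values chose the members and are a description without a test. The 3 members nearest the threshold had a smaller fold of 4.03, 4.21 and 4.34, and the 3 genes just outside had 3.99, 3.89 and 3.76.

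**Figure D1:**
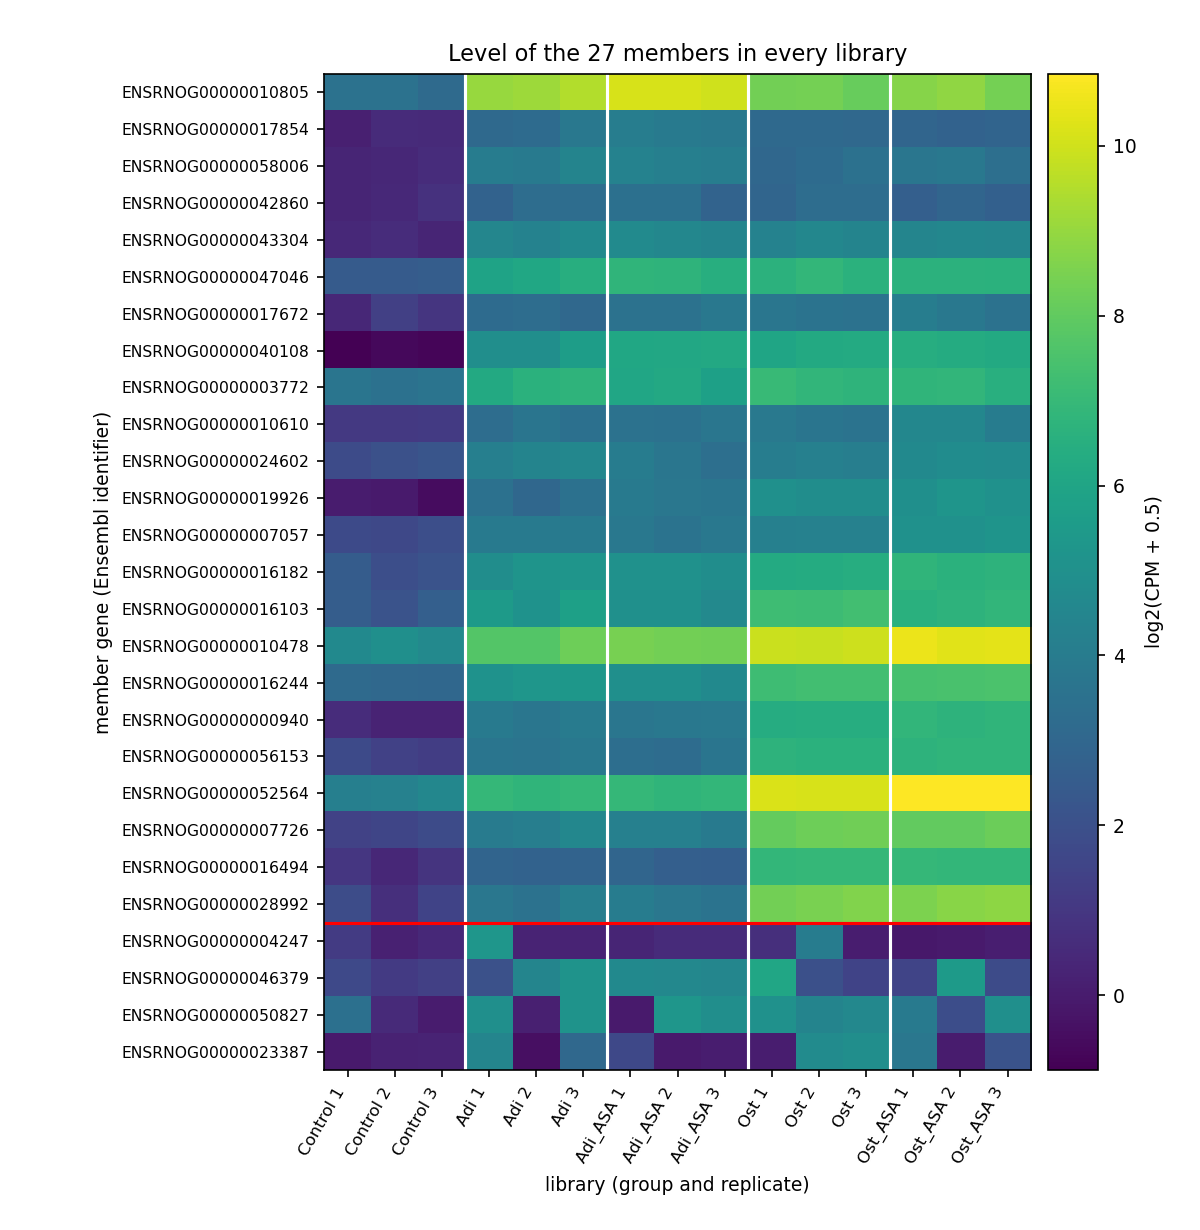
Level of each of the 27 members (rows) in each of the 15 libraries (columns), as log2(CPM + 0.5) by colour; white lines part the 5 groups. Above the red line are the 23 members whose Adi and Ost libraries all lay above the Control libraries, ordered from higher in Adi_ASA to higher in Ost_ASA; below it are the 4 whose libraries overlap Control.

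Replicates divided the members into 2 kinds. In 23 members all 3 Adi and all 3 Ost libraries lay above all 3 Control libraries, and each of those 6 libraries was at least 4-fold above the Control mean. Over all genes tested 9.14% had Adi and Ost libraries entirely above Control, a share that cannot be read against the members because the selection used these libraries. The other 4 members overlapped Control in a medium, as the heat map shows in its lowest rows. Their replicate spread, as edgeR's biological coefficient of variation, was 1.05 to 1.19, against 0.0631 to 0.199 in the 23 members and a median of 0.106 over all genes tested.

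In these 4 members the group means rested on a few libraries. ENSRNOG00000004247 was at 38.2, 0.726 and 0.728 CPM in Adi replicates 1, 2 and 3 and at 1.11, 15.8 and 0.546 CPM in Ost, against 1.71, 0.638 and 0.867 CPM in Control. A single Adi library and a single Ost library were high, and with aspirin all 6 libraries were between 0.411 and 0.995 CPM. ENSRNOG00000023387 was at 21.4, 0.259 and 8.01 CPM in Adi and at 0.532, 27.3 and 29.3 CPM in Ost, against 0.482 to 0.714 CPM in Control. With aspirin it was at 2.63, 0.477 and 0.547 CPM in Adi_ASA and at 13.1, 0.526 and 3.86 CPM in Ost_ASA. Every treated group of this gene thus held a library at or below the Control level.

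ENSRNOG00000046379 was at 3.56, 21.5 and 34.9 CPM in Adi and at 65.8, 3.48 and 2.32 CPM in Ost, against 2.80, 1.67 and 2.04 CPM in Control. Among the groups in a differentiation medium this gene was even only in Adi_ASA (25.4, 24.0 and 21.9 CPM). In Ost_ASA 1 of 3 libraries was high (2.42, 44.6 and 2.94 CPM). ENSRNOG00000050827 was at 30.2, 0.622 and 35.2 CPM in Adi and at 33.0, 20.5 and 23.4 CPM in Ost. One Control library of this gene was itself high (10.3, 0.932 and 0.510 CPM), and with aspirin it was at 0.483, 37.8 and 29.3 CPM in Adi_ASA and 14.5, 3.16 and 30.9 CPM in Ost_ASA. High libraries of the 4 genes did not follow 1 replicate number or 1 group.

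**Figure D2:**
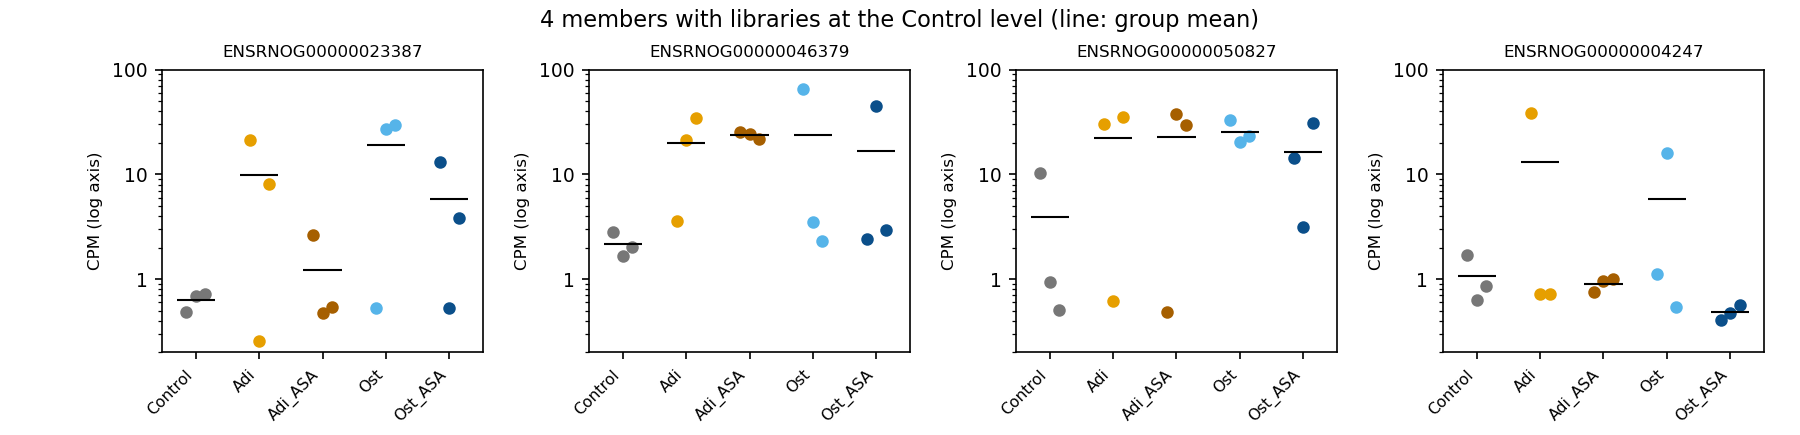
CPM on a log axis in each library (points) and the group mean (line) for the 4 members whose Adi or Ost libraries overlap Control. Each gene has a medium without aspirin in which some libraries lie near the Control level and others well above it.

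The remaining 23 members were even among replicates. ENSRNOG00000040108 had the largest smaller fold, at 61.2 in Adi and 122 in Ost. It was almost silent in Control, with 6 reads in all (0.0438, 0.147 and 0.102 CPM), and stood at 29.2, 29.9 and 49.1 CPM in Adi and 64.5, 75.8 and 77.8 CPM in Ost. Because 0.5 CPM is added to each mean, these folds understate the ratio of so low a gene. ENSRNOG00000010805 was next, at 11, 11.1 and 8.52 CPM in Control, 524, 567 and 712 CPM in Adi and 329, 334 and 274 CPM in Ost, or 56.1-fold and 29.2-fold. It was the most abundant member in Adi and among the few with a higher level there than in Ost. ENSRNOG00000052564 was the most abundant member in Ost, at 1172, 1121 and 1109 CPM, against 120, 112 and 120 CPM in Adi and 17.7, 18.7 and 23.2 CPM in Control. ENSRNOG00000010478, the second in Ost, was at 968, 931 and 978 CPM there, at 207, 208 and 301 CPM in Adi and at 25.6, 30.8 and 24.5 CPM in Control.

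The 6 libraries with aspirin played no part in the selection, and they show how far the elevation was found in other libraries of the same media. All 3 Adi_ASA and all 3 Ost_ASA libraries lay above all Control libraries for the same 23 members. Over all genes tested this held for 10.4%, with the Control libraries shared with the selection. The fold over Control of these 23 was 3.30 to 119 in Adi_ASA (median 6.45) and 4.77 to 157 in Ost_ASA (median 20.7). It was 4 or more in both aspirin groups for 18, and the other 5 were under 4-fold in Adi_ASA: ENSRNOG00000024602 at 3.30, ENSRNOG00000016244 at 3.43, ENSRNOG00000007057 at 3.82, ENSRNOG00000056153 at 3.89 and ENSRNOG00000016494 at 3.94. Without aspirin these 5 were at 4.21-fold to 5.07-fold in Adi, near the limit that chose them, which favours lower values in other libraries. Of all 27 members, 20 were at 4-fold or more in Adi_ASA and 25 in Ost_ASA. ENSRNOG00000004247 was at 0.891-fold and 0.628-fold of Control, and ENSRNOG00000023387 was at 1.52-fold and 5.60-fold.

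**Figure D3:**
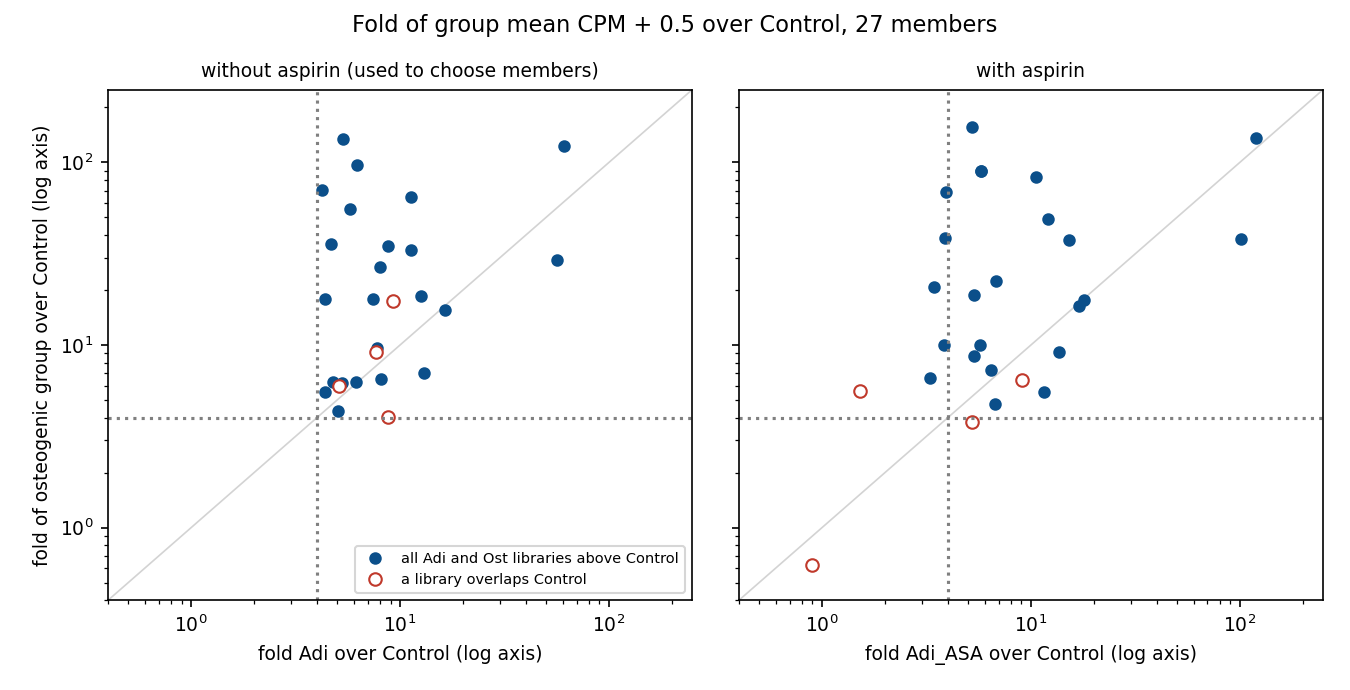
Fold of each member over Control in adipogenic (x axis) and osteogenic (y axis) groups, both on log axes, without aspirin (left, the values that chose the members) and with aspirin (right); dotted lines mark 4-fold and the grey line equality. The 23 filled points all lie above 4-fold in both media on the left, 5 of them lie under 4-fold in Adi_ASA on the right, and 2 of the 4 open points drop towards 1 in Adi_ASA on the right.

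The summed level of the 23 members is given as a description. It was 113 to 115 CPM in Control, 1301 to 1718 CPM in Adi, 1927 to 2127 CPM in Adi_ASA, 4173 to 4189 CPM in Ost and 5403 to 5514 CPM in Ost_ASA. That Adi and Ost lie above Control here was fixed by the selection. A few abundant members weigh most in these sums: ENSRNOG00000010805 alone went from a mean of 601 CPM in Adi to 1081 CPM in Adi_ASA. By the sign of the edgeR log2 fold change, which scales libraries otherwise than CPM, 13 of the 23 were lower and 10 higher in Adi_ASA than in Adi. In bulk RNA fewer cells of a kind and less RNA per cell cannot be told apart.

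Whether the media held the members at different levels with aspirin present was tested between Adi_ASA and Ost_ASA, the libraries that the selection did not use. Of the 27 members 15 were lower in Adi_ASA than in Ost_ASA and 4 were higher (edgeR quasi-likelihood test, Benjamini-Hochberg adjusted p under 0.05). Over all genes tested 32.8% were lower and 32.9% higher. The median log2 difference was -0.96 for the members and 0.01 for all genes tested. The 2 member counts were the same with each of the 6 Adi_ASA and Ost_ASA libraries left out in turn. Without aspirin the order of the group mean CPM was the same for 17 of these 19 members. The order turned for ENSRNOG00000024602, lower in Adi_ASA than in Ost_ASA but at a mean of 20.3 CPM in Adi and 17.3 CPM in Ost. In mean CPM it also turned for ENSRNOG00000042860, higher in Adi_ASA but at 8.42 CPM in Adi and 8.63 CPM in Ost. The libraries of ENSRNOG00000042860 overlapped, at 6.49, 9.44 and 9.32 CPM in Adi and 7.19, 9.36 and 9.33 CPM in Ost. Since edgeR scales libraries otherwise than CPM, so small a gap need not have the same sign on the scale of the test.

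Among the 15, a group of 7 was more than 4-fold higher in Ost_ASA, with log2 differences of -4.88 to -2.54. ENSRNOG00000028992 showed the largest, at 15.8, 13.3 and 11.5 CPM in Adi_ASA and 367, 437 and 455 CPM in Ost_ASA (log2 fold change of -4.88, with SE 0.22 and adjusted p = 2.46e-09). ENSRNOG00000016494 was at 7.29, 5.87 and 5.62 CPM in Adi_ASA and 120, 118 and 118 CPM in Ost_ASA (log2 fold change of -4.17, with SE 0.09 and adjusted p = 8.9e-20). Both had been only 5.31-fold and 4.21-fold over Control in Adi but 135-fold and 70.7-fold in Ost, so they entered the set near the adipogenic limit. ENSRNOG00000007726 followed the same pattern, at 18.3, 18.5 and 14.4 CPM in Adi_ASA and 264, 258 and 299 CPM in Ost_ASA (log2 fold change -3.93, SE 0.15), and so did ENSRNOG00000056153 at 9.60, 9.22 and 12.3 against 104, 110 and 110 CPM (log2 fold change -3.30, SE 0.10). Without aspirin these 2 genes were at 12 to 22.8 CPM in Adi and at 96.7 to 311 CPM in Ost, so the gap between media was there in both sets of libraries. The 3 others of the group were ENSRNOG00000052564, ENSRNOG00000000940 and ENSRNOG00000016244, whose levels follow with the aspirin tests.

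The other 8 of the 15 differed by -1.94 to -0.63. ENSRNOG00000010478 was at 350, 329 and 318 CPM in Adi_ASA and 1455, 1256 and 1330 CPM in Ost_ASA (log2 fold change -1.94, SE 0.14). ENSRNOG00000016182 was at 32.4, 32.3 and 28.5 against 109, 98.1 and 102 CPM (log2 fold change -1.65, SE 0.11). ENSRNOG00000019926 was at 14.5, 13 and 12.2 against 31, 37.2 and 32.2 CPM (log2 fold change -1.26, SE 0.13). All 3 genes were graded over the media, with Control libraries below Adi and Adi libraries below Ost.

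The 4 members higher in Adi_ASA differed by 0.60 to 1.48. ENSRNOG00000010805 was at 1111, 1114 and 1017 CPM in Adi_ASA and 421, 472 and 336 CPM in Ost_ASA (log2 fold change of 1.48, with SE 0.14 and adjusted p = 1.26e-06). ENSRNOG00000017854 was at 16.7, 14.8 and 13.4 CPM against 7.31, 6.45 and 6.93 CPM (log2 fold change of 1.19, with SE 0.17 and adjusted p = 2.31e-06). For each of the 2 genes the groups were fully apart. ENSRNOG00000058006 was at 19.7, 17.8 and 16.6 against 12.5, 13.7 and 10 CPM (log2 fold change of 0.66, with SE 0.14 and adjusted p = 0.00037). ENSRNOG00000042860 was at 10.6, 10.6 and 6.61 against 5.8, 7.32 and 6.14 CPM (log2 fold change of 0.60, with SE 0.19 and adjusted p = 0.00905), and its groups overlapped.

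Of the 8 members that did not pass, 4 were the uneven ones described above. For the other 4 the interval bounds the difference between the media with aspirin present. ENSRNOG00000043304 was at 26.2, 22.8 and 20.5 CPM in Adi_ASA and 21.2, 23.1 and 22.2 CPM in Ost_ASA, a log2 difference of 0.14 with a 95% interval of -0.08 to 0.36 (edgeR adjusted p = 0.253). Without aspirin this gene was at 22.1, 19.4 and 25.2 CPM in Adi and 19.7, 22.9 and 21.1 CPM in Ost, against 0.877, 1.03 and 0.765 CPM in Control, so that all 12 libraries in either medium overlapped between the media and lay far above Control. ENSRNOG00000047046 differed by 0.11 (interval -0.17 to 0.39), ENSRNOG00000040108 by -0.12 (-0.49 to 0.25) and ENSRNOG00000017672 by -0.11 (-0.49 to 0.26), with edgeR adjusted p of 0.466, 0.556 and 0.59. A difference within those bounds may still exist. The bounds do not extend to the media without aspirin, where these 3 genes had every Adi library below every Ost library. ENSRNOG00000047046 was at 59.8, 67.5 and 88.3 CPM in Adi and 101, 118 and 97.5 CPM in Ost. ENSRNOG00000017672 was at 8.96, 9.44 and 7.91 CPM in Adi and 12.6, 11.4 and 11.3 CPM in Ost, and ENSRNOG00000040108 stood at the values given above.

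Aspirin in adipogenic medium moved 5 members: 2 rose and 3 fell in Adi_ASA relative to Adi. The Adi libraries helped to choose the members for being high, which favours lower values in any other libraries of that medium. Over all genes tested 2.49% rose and 1.85% fell, and the median log2 fold change was -0.06 for the members and 0.00 for all genes tested. Another 22 members did not pass.

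The members that rose were the 2 with the largest folds over Control in Adi. ENSRNOG00000040108 went from 29.2, 29.9 and 49.1 CPM in Adi to 68.5, 69.8 and 74.0 CPM in Adi_ASA (log2 fold change of 0.91, with SE 0.18 and adjusted p = 0.0153). That brought it to the level of Ost, at 64.5 to 77.8 CPM. Its adjusted p was 0.0502 without Adi replicate 2, 0.0671 without Adi_ASA replicate 3 and 0.169 when only the Adi and Adi_ASA libraries were fitted. ENSRNOG00000010805 went from 524, 567 and 712 to 1111, 1114 and 1017 CPM (log2 fold change of 0.79, with SE 0.14 and adjusted p = 0.00875), and passed under all 11 alternatives. The highest edgeR adjusted p among these was 0.0499, when only the Adi and Adi_ASA libraries were fitted.

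The falls were smaller. ENSRNOG00000024602 went from 17.6, 20.5 and 22.6 CPM in Adi to 16.1, 12.8 and 10.1 CPM in Adi_ASA (log2 fold change of -0.70, with SE 0.13 and adjusted p = 0.00497; 0.0827 with only these 2 groups fitted). ENSRNOG00000016244 went from 33.9, 38.0 and 39.5 to 31.0, 30.6 and 25.2 CPM (log2 fold change of -0.42, with SE 0.07 and adjusted p = 0.00214). In both genes the highest Adi_ASA library was just below the lowest Adi library. ENSRNOG00000003772 went from 75.7, 98.6 and 107 to 66.1, 74.0 and 53.9 CPM (log2 fold change of -0.59, with SE 0.14 and adjusted p = 0.0418), a call that was lost under 7 of 11 alternatives. Its adjusted p was 0.126 and 0.131 without Adi replicates 2 and 3, 0.103 and 0.131 without Adi_ASA replicates 1 and 3, and 0.0688 with the replicate number as a block.

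One library moved with these values. Adi replicate 3 was the highest of the Adi libraries for 16 of the 23 even members, while it was the highest for 26.5% of all genes tested. The selection used these libraries, so that share cannot be read against the members. Without Adi replicate 3, 7 members passed, 5 higher and 2 lower, and 4 of the original 5 were among them. Over all genes tested 271 were higher and 143 lower in that setting. The part of Adi replicate 3 in the counts above was not tested further.

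Aspirin in osteogenic medium raised 5 members and lowered 0 in Ost_ASA relative to Ost, where 2.34% of all genes tested rose and 1.29% fell (edgeR adjusted p under 0.05). DESeq2 called 8 members higher and 0 lower, against 471 higher and 263 lower over all genes. At an unadjusted edgeR p under 0.05 there were 12 members in either direction, and 14 for aspirin in adipogenic medium. There was no count over all genes to set beside these. The median log2 fold change was 0.18 for the members and 0.00 for all genes tested. The Ost libraries also helped to choose the members for being high, which favours lower values in other libraries of that medium. How far this reached each gene was not tested.

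ENSRNOG00000007057 rose from 18.5, 18.9 and 18.8 CPM in Ost to 33.1, 33 and 36.4 CPM in Ost_ASA (log2 fold change of 0.89, with SE 0.09 and adjusted p = 3.46e-06). ENSRNOG00000010610 rose from 14.1, 12.2 and 11.6 to 23.1, 23 and 15.8 CPM (log2 fold change of 0.72, with SE 0.13 and adjusted p = 0.00172). The abundant ENSRNOG00000052564 rose from 1172, 1121 and 1109 to 1822, 1838 and 1816 CPM (log2 fold change of 0.71, with SE 0.07 and adjusted p = 3.46e-06). All 3 had Ost_ASA libraries entirely above the Ost libraries. ENSRNOG00000024602 rose from 16.6, 18.3 and 16.9 to 25.5, 27.4 and 26.8 CPM (log2 fold change of 0.64, with SE 0.13 and adjusted p = 0.00717), and ENSRNOG00000000940 from 83.5, 85.2 and 85.5 to 112, 104 and 111 CPM (log2 fold change of 0.38, with SE 0.07 and adjusted p = 0.00217). In these genes too the groups were apart, and all 5 calls held under all 11 alternatives. The highest edgeR adjusted p among these was 0.0492, for ENSRNOG00000024602 without Ost replicate 1.

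The effect of aspirin itself differed between the media for 5 members, in each case more negative in adipogenic than in osteogenic medium, and for 0 in the other direction (edgeR test of the difference, adjusted p under 0.05). Over all genes tested 1.63% were more negative and 1.2% more positive in adipogenic medium by the same edgeR test. DESeq2 called 8 members more negative and 1 more positive. Its calls over all genes were also more often negative than positive, so that lean was not particular to the members. At an unadjusted edgeR p under 0.05 there were 13 members in either direction. No count over all genes was made at that limit, so the 13 are a description only. ENSRNOG00000024602 passed in both media with opposite directions, lower with aspirin in adipogenic and higher in osteogenic medium, and the difference was -1.34 (SE 0.19, adjusted p = 0.000542). It was at 3.02, 3.63 and 4.13 CPM in Control, so both aspirin groups were still above every Control library.

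**Figure D4:**
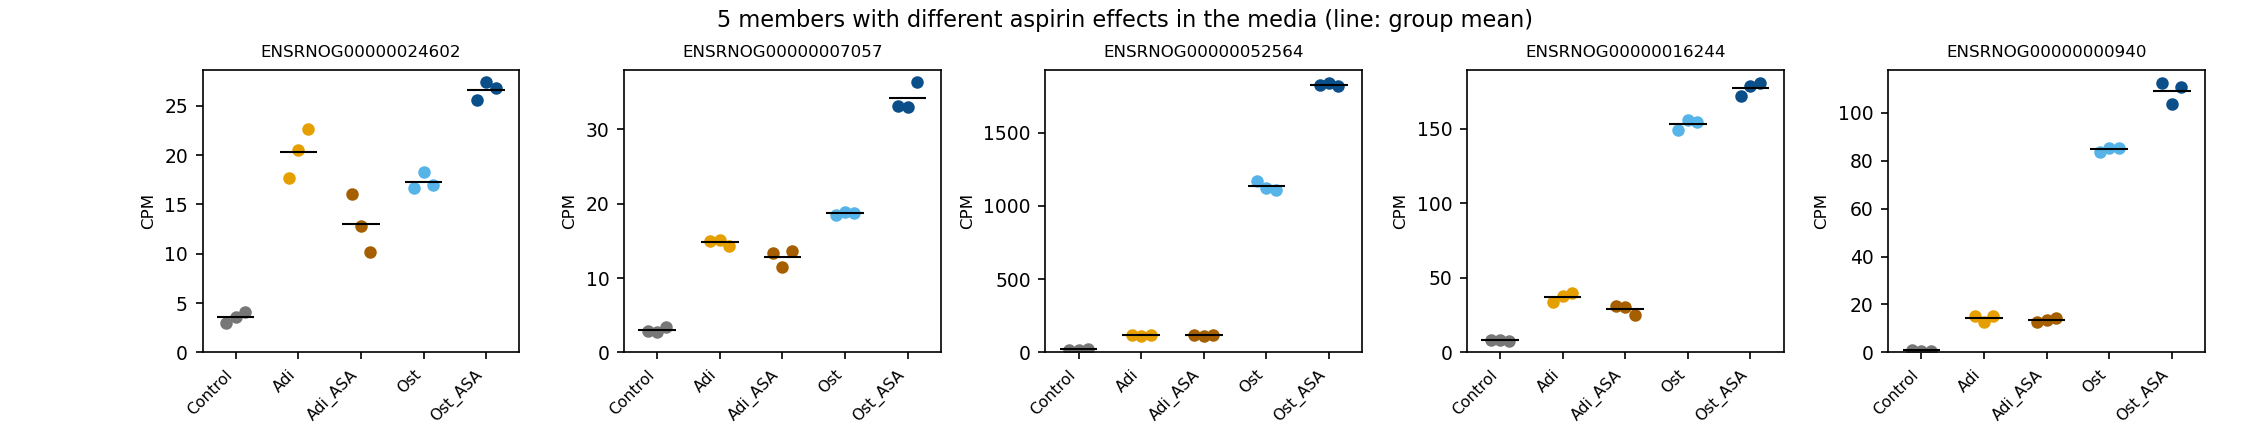
CPM in each library (points) and the group mean (line) for the 5 members whose aspirin effect differed between the media, ordered by the size of the difference; each axis starts at 0. Ost_ASA lies above Ost in each panel, while Adi_ASA lies at or below Adi.

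ENSRNOG00000007057 differed by -1.15 (SE 0.12, adjusted p = 1.94e-05): it was at 15, 15.1 and 14.3 CPM in Adi and 13.4, 11.5 and 13.6 CPM in Adi_ASA, where the test did not pass (log2 fold change -0.26, adjusted p = 0.109), while it rose in osteogenic medium. ENSRNOG00000052564 differed by -0.77 (SE 0.10, adjusted p = 0.000135), with 120, 112 and 120 CPM in Adi and 121, 111 and 119 CPM in Adi_ASA. Its adipogenic levels overlapped, with a log2 fold change of -0.06 and a 95% interval of -0.21 to 0.09. ENSRNOG00000016244 differed by -0.65 (SE 0.10, adjusted p = 0.000797), falling in adipogenic medium and standing at 149, 156 and 155 CPM in Ost and 172, 179 and 181 CPM in Ost_ASA, where the test just missed (adjusted p = 0.0607). ENSRNOG00000000940 differed by -0.54 (SE 0.11, adjusted p = 0.00628), with 15.1, 12.8 and 15.2 CPM in Adi and 12.5, 13.6 and 14.2 CPM in Adi_ASA. Of the 5, then, 3 had passed in osteogenic medium only, 1 in adipogenic medium only and 1 in both, and each of the 5 differences held under all 17 alternatives.

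**Figure D5:**
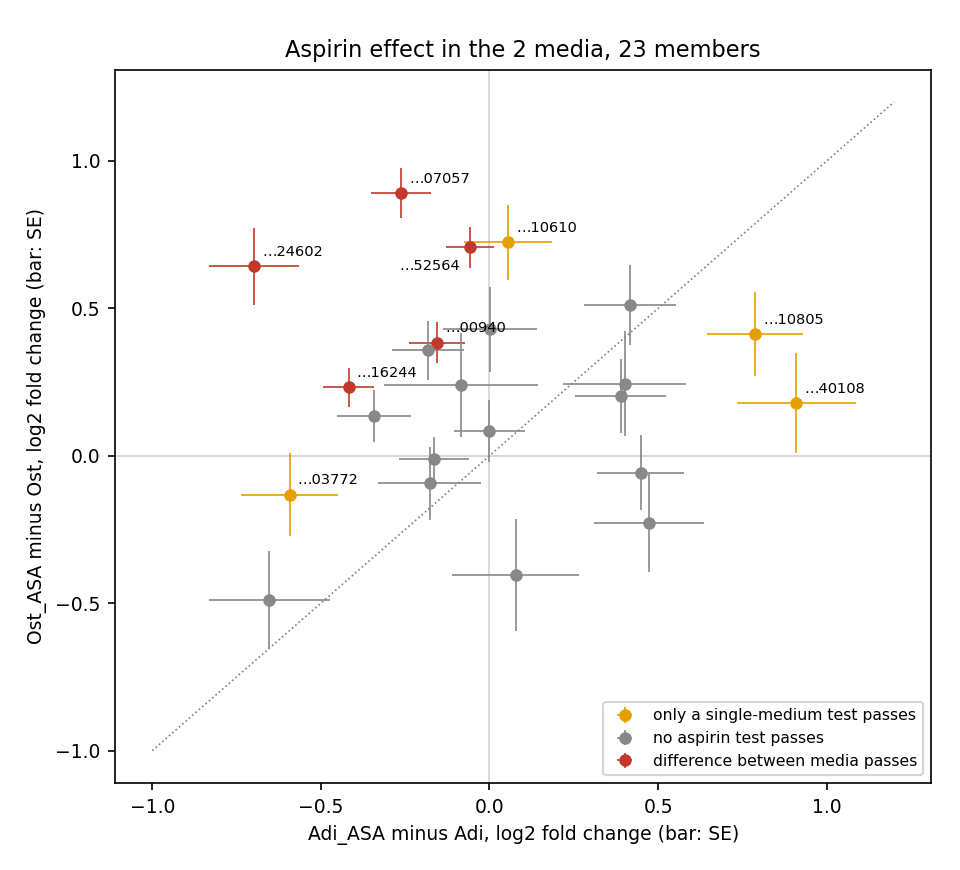
Log2 fold change with aspirin in adipogenic (x axis) and osteogenic medium (y axis) for the 23 even members, with standard errors as bars and equality as a dotted line; labels give the last 5 digits of the identifier. The 5 members whose effects differ between media (red) lie above the line, and ENSRNOG00000040108 and ENSRNOG00000010805 lie far right.

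Across both media 9 members passed an aspirin test and 1 of them passed in both. No such count was made over all genes, so these counts are a description of the members only. The 14 even members that passed in neither medium had log2 fold changes of -0.65 to 0.47 in adipogenic and -0.49 to 0.51 in osteogenic medium. ENSRNOG00000010478 was the largest positive value of these in osteogenic medium, from 968, 931 and 978 CPM in Ost to 1455, 1256 and 1330 CPM in Ost_ASA (log2 fold change of 0.51, with SE 0.13 and adjusted p = 0.0626), and its adipogenic value was 0.42 (adjusted p = 0.125). ENSRNOG00000016103 was the lowest in both, at 45.5, 33.7 and 54.1 CPM in Adi and 32.1, 31.6 and 24.7 CPM in Adi_ASA, and at 147, 142 and 155 CPM in Ost and 95.3, 102 and 115 CPM in Ost_ASA. Its log2 fold changes of -0.65 and -0.49 did not pass (adjusted p = 0.0747 and 0.17), although its libraries with and without aspirin did not overlap in either medium. For the 4 uneven members the standard error was 1.31 to 1.67 in adipogenic and 1.32 to 1.79 in osteogenic medium, against 0.0716 to 0.228 and 0.0671 to 0.19 in the even ones. The largest value was that of ENSRNOG00000004247, at -3.91 in adipogenic medium with a 95% interval of -7.63 to -0.20 (edgeR adjusted p = 0.262) and at -3.51 in osteogenic medium (adjusted p = 0.415). ENSRNOG00000023387 was at -3.10 and -1.68 (adjusted p = 0.374 and 0.659). None of the 4 passed in either medium, and intervals this wide leave large effects possible. DESeq2 gave no p for ENSRNOG00000004247 in any of the 4 comparisons, so it was not tested there.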

How the data were processed

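The deposited table held unnormalised read counts per gene for 15 libraries, made by the authors with HISAT2 2.0.4, HTSeq 0.9.1 and DESeq 1.18.0 on Rnor_6.0, per the submitters' processing notes; their roles, the strand setting and the annotation are not given in these sources, so overlapping or near-identical genes are uncertain. Levels are CPM of column totals. Tests used edgeR 4.0.16 in R 4.3.3 on the counts: filterByExpr, TMM scaling (factors 0.911 to 1.07), 1 quasi-likelihood model of 5 group means over all libraries, Benjamini-Hochberg adjustment over 15543 genes at 0.05; the standard error is the log2 fold change over the root of F. The model was checked on simulated data. Alternatives were DESeq2 1.42.0, RLE factors, no low-count filter, fewer groups, a replicate block and leaving out each library. Chi-square per degree of freedom between replicates of a group was 5.65 to 14.4. Each library was counted as its own replicate, but this value does not tell separate animals from dishes of the same animal.

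The members and lists were chosen with earlier results of these data known. The rule for naming took members past a test (at most 8 per direction), the 10 of highest mean level, the 10 of largest smaller fold and those next to the threshold. The members that did not differ between media and the 4 uneven ones were named after their values were seen. The 9 gene lists and the cell type markers written as symbols could not be matched to identifiers and were not run, and no sequence could be assigned.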

Additional observations from a re-analysis of the deposited data

Results flagged for a closer look

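The effect of aspirin differed between the media for 5 members by a test of the difference itself (edgeR): ENSRNOG00000024602 at -1.34, ENSRNOG00000007057 at -1.15, ENSRNOG00000052564 at -0.77, ENSRNOG00000016244 at -0.65 and ENSRNOG00000000940 at -0.54, each as adipogenic minus osteogenic on the log2 scale. The Adi and Ost libraries in this test also took part in the selection. Choosing for high Adi favours negative values and choosing for high Ost favours positive ones, and the net pull was not tested.

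Outside the Ensembl rows, 2 rows with names of another kind met the same fold and level thresholds. Novel01514 was even among replicates, at 5.34, 5.45 and 5.48 CPM in Adi and 3.95, 5.82 and 6.28 CPM in Ost against 0.204 to 0.526 CPM in Control, and its aspirin libraries lay between 3.58 and 7.89 CPM. Novel01454 was uneven like the 4 members described above, at 39.8, 0.259 and 40.9 CPM in Adi, 40.01, 0.218 and 0.41 CPM in Ost and 6.92, 0.54 and 0.663 CPM in Control. The labels do not say what these rows stand for. Single outlying libraries were not looked for by Dixon's test, since each group holds 3.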

How the results depend on the processing

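The count of members was 44 at 3-fold, 9 at 8-fold and 15 with 2 CPM added to the means. It was 30 with 0.1 CPM added, 33 on TMM-scaled CPM, 26 to 29 with a Control, Adi or Ost library left out (at least 24 of the 27 shared), and 28, with 24 shared, on group medians, an alternative chosen after seeing the data. For aspirin in adipogenic medium the count of 5 was 3 with only those groups fitted, 8 under DESeq2 and 4 to 7 with a library left out; over all genes it went from 675 to 409 and 414 without Adi replicates 2 and 3, and to 437, 420 and 285 without Adi_ASA replicates 1, 2 and 3. For osteogenic medium it was 8 with only those groups fitted (7 higher, 1 lower), 8 under DESeq2 and 5 with any library left out; over all genes it went from 564 to 338 and 347 without Ost replicates 1 and 2 and to 370 without Ost_ASA replicate 3. The count of different aspirin effects was 9 under DESeq2, 8 without Adi replicate 3 (3 positive, 5 negative) and 5 to 8 over all libraries left out; over all genes it went from 440 to 289 without Adi_ASA replicate 3. The 19 members that differed between Adi_ASA and Ost_ASA passed under all 11 alternatives. The highest edgeR adjusted p among these was 0.0491, for ENSRNOG00000042860 without Adi_ASA replicate 2. No sign reversed among called members; the cause of each change was not tested. With the replicate number as a block the 4 counts were 4, 5, 19 and 5; deviations of same-numbered libraries did not go together (correlation -0.07 to 0.04 over 30 pairs), so the numbers were not taken as pairs. With 1 left out, an arm keeps 2 libraries. Genes under 1 CPM in Control rest on few reads there.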
